A study of Mus musculus with 8 samples.

Results

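The genes described here are 9 members of the epithelial to mesenchymal transition programme. They are the transcription factor genes Zeb1, Zeb2, Snai1, Snai2, Twist1 and Twist2 and the classical cadherin genes Cdh1, Cdh2 and Cdh3. Open chromatin at these genes was measured in 4 mouse melanoma cell lines by ATAC-seq, an assay that cuts and tags accessible DNA with a transposase. The members were taken from the deposited table of raw counts as every region inside one of the genes (GRCm38), or within 50 kb of it with that gene as the nearest protein-coding gene end. This gave 135 of the 148664 regions of the table, and 126 of the 135 passed the filter on low counts in the comparison of lines. Distances to a gene are taken from the centre of the region. Cdh2 held 35 regions, Zeb2 31, Zeb1 17, Cdh1 14, Twist2 13, Snai1 and Cdh3 9 each, Twist1 4 and Snai2 3.

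The cell lines were grown as pools from lymph node cell suspensions of mice that developed skin melanoma at 25 to 30 weeks of age. Lines 112 and 113 are labelled as STAT3 knockout (Stat3∆) and lines 119 and 73 as wild type, which the protocol calls Stat3fl. The labels call each line a clone, although the protocol describes pools. STAT3 is a transcription factor downstream of cytokine receptors, and the series title links it to C/EBP factors, MITF and metastasis. The titles carry a number after the letter p that the labels do not explain (18 in line 112, 44 in 113, 14 in 119 and 68 in 73). Each line gave 2 libraries of 50000 cells, and no other agent or allele is given. With 2 lines per genotype, a difference that separates the genotypes cannot be told apart from a difference between individual lines. The libraries are labelled as biological replicates, but the labels do not say that they came from separate cultures, so their spread may be technical.

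ZEB, SNAIL and TWIST proteins bind E-box sequences, and the ZEB and SNAIL families are known as repressors of the E-cadherin gene Cdh1 in epithelial cells. TWIST proteins are basic helix-loop-helix factors of mesoderm and neural crest. In the melanocyte lineage, SNAI2 and ZEB2 are known for roles in normal melanocytes, and a shift from ZEB2 and SNAI2 to ZEB1 and TWIST1 has been described in melanoma. E-cadherin (Cdh1) and P-cadherin (Cdh3) are the epithelial cadherins that join melanocytes to keratinocytes, whereas N-cadherin (Cdh2) is the cadherin of mesenchymal and neural cells. Accessibility of DNA near a gene is not a measure of its expression.

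Total counts ran from 2697546 to 7464336 per library, with line 119 the deepest and line 112 the shallowest, and the authors' peak calls ran from 20387 to 94906 per library. Values are given as CPM, the counts per 1000000 of the library total after TMM normalization over all regions. The floor of 3 counts corresponded to 0.389 to 0.949 CPM, and it covers counting error only. The start region of a gene is the region with most counts within 1 kb of a listed transcription start, or of either gene end where no start was listed. Start regions of all other genes moved together between lines under this scaling. Their median log2 difference was 0.78 for line 113 over 119, -0.72 for 119 over 73, -0.55 for 112 over 113 and -0.52 for 112 over 73, but 0.18 for 112 over 119 and 0.06 for 113 over 73. Calls at start regions are therefore also given with the scaling taken from the start regions alone, an alternative chosen after the data were seen. At the Stat3 start region itself, the knockout libraries lay between 26.6 and 39.2 CPM and the wild-type libraries between 18.3 and 38.5 CPM. The labels do not say which part of Stat3 is deleted, so these values do not check the genotype.

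The RefSeq promoter table of GRCm38.p6 (250 bases before to 50 after each start) matched 4 of the 9 members, Zeb2, Snai1, Twist1 and Twist2. One promoter is shown for each, because the start regions of Snai1, Twist1 and Twist2 were higher in line 73 than in every other line while that of Zeb2 was not. Capitals mark matches, on either strand, to the motifs CACCTG (the E-box variant bound by ZEB and SNAIL factors), TTCNNNGAA (STAT), TTGCNNAA (C/EBP), TGANTCA (AP-1) and CATGTG (an E-box of MITF). The promoters are Zeb2 at chr2:45110228-45110527 on the minus strand, Snai1 at chr2:167537945-167538244 on the plus strand, Twist1 at chr12:33957421-33957720 on the plus strand and Twist2 at chr1:91801211-91801510 on the plus strand.
Zeb2: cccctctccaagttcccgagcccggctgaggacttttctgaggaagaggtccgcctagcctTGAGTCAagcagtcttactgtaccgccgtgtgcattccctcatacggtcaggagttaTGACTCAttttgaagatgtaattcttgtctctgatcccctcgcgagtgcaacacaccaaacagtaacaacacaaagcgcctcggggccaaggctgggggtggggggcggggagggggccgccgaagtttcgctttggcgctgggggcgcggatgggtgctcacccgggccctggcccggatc
Snai1: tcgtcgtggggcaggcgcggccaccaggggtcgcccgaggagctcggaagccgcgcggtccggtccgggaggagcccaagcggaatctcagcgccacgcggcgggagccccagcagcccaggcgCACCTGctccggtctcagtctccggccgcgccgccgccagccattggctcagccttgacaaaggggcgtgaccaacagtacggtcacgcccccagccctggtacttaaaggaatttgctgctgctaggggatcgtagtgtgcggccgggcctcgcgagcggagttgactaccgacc
Twist1: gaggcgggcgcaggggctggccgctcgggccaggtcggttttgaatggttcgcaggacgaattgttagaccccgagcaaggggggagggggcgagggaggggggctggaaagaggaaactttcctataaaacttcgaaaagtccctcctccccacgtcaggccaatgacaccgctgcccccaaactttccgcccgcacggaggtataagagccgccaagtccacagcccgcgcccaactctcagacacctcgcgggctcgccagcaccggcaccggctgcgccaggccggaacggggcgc
Twist2: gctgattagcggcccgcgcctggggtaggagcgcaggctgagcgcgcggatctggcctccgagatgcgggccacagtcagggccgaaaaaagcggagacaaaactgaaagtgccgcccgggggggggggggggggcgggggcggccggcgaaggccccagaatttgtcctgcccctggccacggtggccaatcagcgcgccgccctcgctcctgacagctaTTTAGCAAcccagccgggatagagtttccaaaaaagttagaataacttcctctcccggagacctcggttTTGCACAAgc

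The Snai1 promoter held 1 CACCTG, 126 bases before the start, a motif that 20.2% of the 32851 listed promoters contain. The Twist2 promoter held 2 matches to TTGCNNAA, 29 bases before and 40 bases after the start, and 10.8% of promoters have at least 1. The printed Zeb2 promoter, at the start inside its most accessible start region, held 2 matches to TGANTCA, 189 and 132 bases before the start (7.81% of promoters have at least 1). Another listed Zeb2 start, at position 45113279, had 1 match to TTCNNNGAA 147 bases upstream, in a motif found in 8.30% of promoters. The Twist1 promoter matched none of the 5 motifs. CATGTG, present in 14.2% of promoters, was in none of the 4 promoters printed. These are matches of letters only.

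At the start regions of 4 of the 6 transcription factor genes, line 73 was above each of the other 3 lines, the wild-type line 119 included. Its Twist1, Twist2, Snai1 and Zeb1 start regions were the most accessible, whereas Zeb2 and Snai2 did not share this pattern. Twist1 (chr12:33957029-33958954, spanning the start) read 39.7 and 37.3 CPM (line 112), 41.5 and 44.7 (line 113), 42.9 and 44.1 (line 119), and 96.1 and 83.9 (line 73). Both libraries of line 73 lay above all 6 others, which themselves spanned a narrow range. Lines 112, 113 and 119 differed from line 73 by -1.22 ± 0.16, -1.06 ± 0.16 and -1.05 ± 0.15 log2 (SE), with adjusted p of 9.3e-09, 7.4e-08 and 5.8e-08 (edgeR quasi-likelihood, Benjamini-Hochberg over 134068 regions). Of the start regions of other genes, 61.2%, 31.7% and 77.8% were called in these 3 comparisons.

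Twist2, the close relative of Twist1, gave the widest range of the start regions. Its start region (chr1:91800847-91802248) read 9.68 and 13.9 CPM (line 112), 24.2 and 20.9 (line 113), 13.6 and 15.1 (line 119), and 65.7 and 53.7 (line 73). Line 73 was again above all other libraries, and under this scaling line 113 was above lines 112 and 119. Scaled on start regions, line 113 was not called against line 119 (-0.07 log2 for 113 over 119, adjusted p 0.77, edgeR). Nor was it called against line 112 (-0.43 for 112 over 113, adjusted p 0.12). Over all regions, lines 112, 113 and 119 differed from line 73 by -2.36 ± 0.21, -1.40 ± 0.19 and -2.06 ± 0.19 log2 (SE). The adjusted p were 4.4e-13, 1.1e-08 and 4.4e-13 by edgeR. Of 12576 start regions compared over the 8 libraries, those of Zfpm2, Sema5a and Tex26 had the profiles most like it, with Euclidean distances of 0.431, 0.464 and 0.480 in centred log2 CPM. Twist2 was the only start region whose line means spanned at least 4-fold (4.96-fold), so no such genes were sought for the other members.

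Snai1, which encodes SNAIL, also had its highest values in line 73. Its start region (chr2:167537685-167538381) read 7.56 and 12.3 CPM (line 112), 11.5 and 11.5 (line 113), 10.2 and 9.67 (line 119), and 30.7 and 25.9 (line 73). Line 73 was the highest, and no pair of the other 3 lines passed the threshold (adjusted p of 0.50 to 0.92 by edgeR). Lines 112, 113 and 119 were below line 73 with log2 differences of -1.54 ± 0.26, -1.29 ± 0.25 and -1.503 ± 0.23 (SE), with adjusted p of 1.8e-06, 1.1e-05 and 3.3e-07. At Zeb1 (chr18:5591699-5593473, at the lower-numbered gene end), the libraries read 11.6 and 19.0 CPM (line 112), 20.7 and 21.1 (line 113), 12.4 and 14.1 (line 119), and 36.2 and 27.0 (line 73). Both line 73 libraries were again the highest, with log2 differences of -1.08 ± 0.23, -0.60 ± 0.22 and -1.26 ± 0.22 for lines 112, 113 and 119 (SE, adjusted p 0.00011, 0.017 and 2.5e-06 by edgeR).

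Scaled on start regions, these 4 genes kept line 73 as the highest line in every comparison, with smaller differences for lines 112 and 119. The differences became -0.73, -1.11 and -0.37 at Twist1 for lines 112, 113 and 119, -1.88, -1.45 and -1.38 at Twist2, -1.05, -1.34 and -0.82 at Snai1, and -0.59, -0.64 and -0.58 at Zeb1. The largest adjusted p among these 12 was 0.020, at Zeb1 for line 112. At Twist1 this scaling also set both knockout lines below line 119, by -0.36 ± 0.13 log2 for line 112 and -0.74 ± 0.12 for line 113 (SE, adjusted p 0.018 and 1.4e-06, edgeR). The Twist1 start region was then lower in both knockout lines than in both wild-type lines, which it was not under the scaling over all regions. It was the only 1 of the 8 start regions to separate the genotypes under start-region scaling, against 6.80% of the start regions of other genes. Line 73 was higher than each other line at 10.5% of the start regions of other genes, and at 5.49% when scaled on start regions.

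Zeb2 and Snai2, the pair known from normal melanocytes, had the narrowest ranges between lines among the start regions of the transcription factors under the scaling over all regions (0.48 and 0.69 log2 CPM from the lowest to the highest line). Scaled on start regions this held for Zeb2 only, since Snai2 then differed by up to 0.90 log2 between lines and Zeb1 by up to 0.64. The most accessible Zeb2 start region (chr2:45109126-45110634) read 31.2 and 33.2 CPM (line 112), 42.2 and 36.3 (line 113), 28.1 and 27.6 (line 119), and 39.0 and 32.7 (line 73). Of the 6 line pairs, 1 passed the threshold, line 113 over 119 (0.49 ± 0.17 log2, SE, adjusted p 0.012, where 80.0% of other start regions passed), and it did not when scaled on start regions (-0.23, adjusted p 0.16). Snai2, which encodes SLUG, read 35.7 and 25.9 CPM (line 112), 53.3 and 45.9 (line 113), 34.5 and 36.3 (line 119), and 31.9 and 28.9 (line 73) at its start region (chr16:14705281-14706547). Line 113 was above all others there (10.1% of the start regions of other genes have it as the highest line), by 0.67, 0.49 and 0.70 log2 against lines 112, 119 and 73 (adjusted p 0.0042, 0.011 and 0.00080, edgeR, with 55.5%, 80.0% and 31.7% of other start regions called). Scaled on start regions the Snai2 order changed, with line 73 below lines 112, 113 and 119 by 0.52, 0.66 and 0.90 log2 (adjusted p 0.0049, 0.00013 and 4.9e-07). Under neither scaling did Snai2 have line 73 on top.

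**Figure D1:**
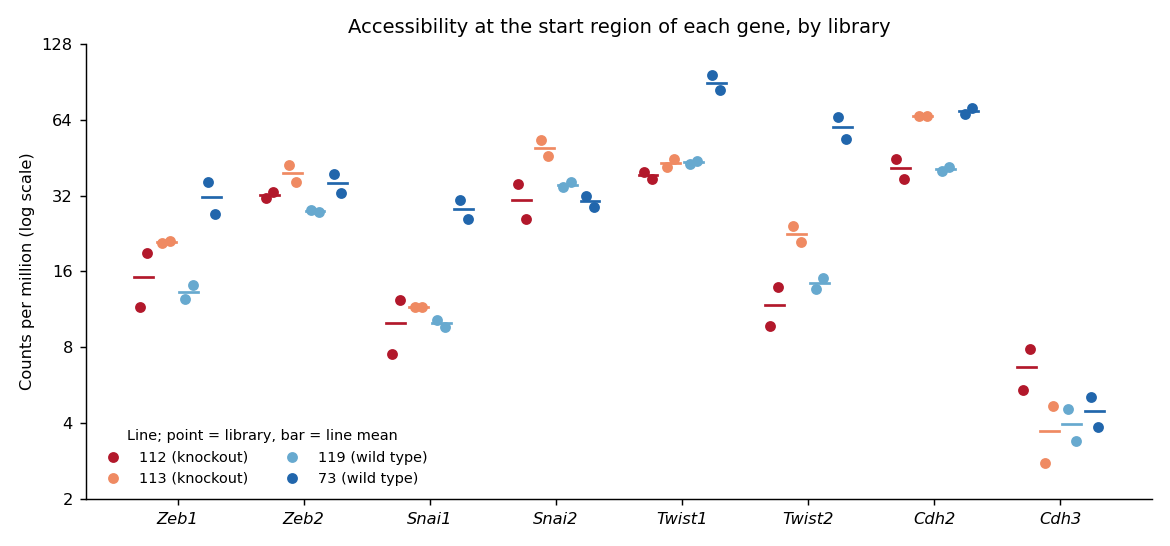
CPM (log scale) at the start region of 8 member genes; each point is 1 library and each bar the mean of the 2 libraries of a line. Line 73 is highest at Zeb1, Snai1, Twist1 and Twist2, where its Twist1 libraries read 96.1 and 83.9; Cdh1 has no region within 1 kb of either gene end.

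The ratio of Zeb1 to Zeb2 and to Snai2 was formed per library from CPM per kb of region. Over the start regions, the log2 ratio of Zeb1 to Zeb2 was -1.66 and -1.04 (line 112), -1.26 and -1.02 (line 113), -1.41 and -1.21 (line 119), and -0.34 and -0.51 (line 73). Over these start regions Zeb1 was thus less accessible than Zeb2 in every library, and both libraries of line 73 had the highest ratios, with no overlap. The Zeb2 region was the strongest at 4 listed starts, whereas Zeb1 had no listed start and its region was taken at a gene end. The knockout minus wild-type difference of line means was -0.38 log2 (exact permutation p 0.67, two-sided), and 2 lines against 2 cannot go below 0.33. The log2 ratio of Zeb1 to Snai2 was -2.11 and -0.94 (line 112), -1.85 and -1.61 (line 113), -1.96 and -1.85 (line 119), and -0.30 and -0.59 (line 73), a genotype difference of -0.45 (exact p 1.0). Replicates of line 112 differed most in both ratios. Summed over whole loci, the Zeb1 to Zeb2 ratio lost this pattern: its line means were 0.50, -0.20, 0.17 and 0.17 in lines 112, 113, 119 and 73. By these sums Zeb1 was above Zeb2 in lines 112, 119 and 73 and below it in line 113, so the order of the 2 genes depended on the regions used.

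**Figure D2:**
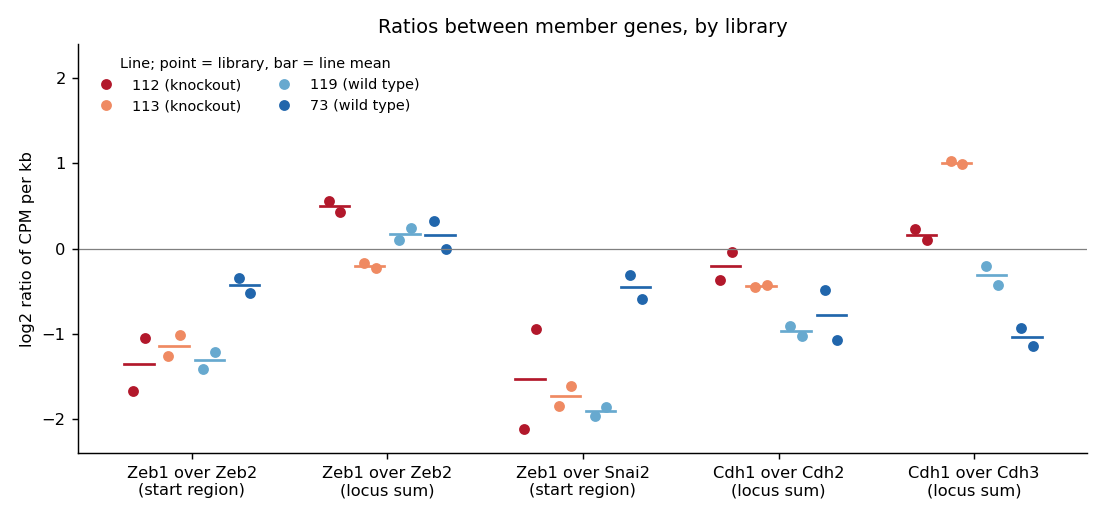
log2 ratio of CPM per kb between pairs of member genes, from start regions or from counts summed over all regions of a gene, by library (points) and line mean (bars). The start region ratio of Zeb1 to Zeb2 is highest in line 73 (-0.34 and -0.51), and the Cdh1 to Cdh3 ratio is above 0 in both knockout lines and below 0 in both wild-type lines.

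In the test of genotype with the line as the unit, 0 of the 130 member regions in that fit passed an adjusted p of 0.05 (edgeR quasi-likelihood), as did 0% of all 140329 regions. At an unadjusted p of 0.05 there were 17 member regions (5 higher and 12 lower in the knockout), 13.1% of those tested against 16.9% of all regions, and DESeq2's Wald test called 5 of 103 at its adjusted threshold (6.45% of all regions). A second, descriptive rule asked whether a region differed in the same direction in all 4 comparisons of a knockout with a wild-type line. By this rule 20 of 126 member regions (15.9%) separated the genotypes, against 15.8% of all regions, 7 of them higher (8.22% of all regions) and 13 lower (7.55%) in the knockout lines. The member share is therefore close to the background. For regions picked by this rule, values that do not overlap between the genotypes follow largely from the rule itself. Peak calls come from the same libraries and are not independent of the counts. No start region was among the 20, against 5.32% of the start regions of other genes, and Twist1 was added when scaled on start regions. The median log2 difference between genotypes over these 130 was -0.24, and over all regions it was -0.09.

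Of 16 tested Zeb1 regions, 2 separated the genotypes, against 15.8% of all regions, and both were less accessible in the knockout lines. The first lies inside the gene, 34.9 kb from its nearer end (chr18:5740282-5740860). It read 1.42 and 3.16 CPM (line 112), 2.07 and 1.23 (line 113), 8.04 and 9.84 (line 119), and 23.8 and 17.6 (line 73). The groups did not overlap, a peak was called in both libraries of both wild-type lines and in no knockout library, and the genotype difference was -2.98 ± 0.91 log2 (SE, adjusted p 0.15 by edgeR). It was also the Zeb1 region with the widest range across lines, and it separated the genotypes under all 16 alternative settings of the fit. The second, 34.1 kb outside the gene, was 2.54 to 5.90 CPM in the knockout and 8.62 to 13.7 CPM in the wild-type libraries and held under 7 of the 16. Of the 17 Zeb1 regions, 15 had a peak in both libraries of line 119, 7 in line 73, 4 in line 113 and 3 (line 112). Line 119 was also the deepest, and over all regions it had peaks in 50.4%, against 30.0%, 27.9% and 12.0% in lines 73, 113 and 112. Within 5 Mb of Zeb1, all regions together had a median genotype difference of -0.56 log2, and the part of this surrounding shift in the Zeb1 values was not tested.

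Of 30 tested Zeb2 regions, 4 separated the genotypes, in both directions, against 15.8% of all regions. The region 8.99 kb outside the end at which its first start lies (chr2:45125992-45126878) read 3.31 and 3.48 CPM (line 112), 1.15 and 1.23 (line 113), 13.6 and 10.7 (line 119), and 9.38 and 10.5 (line 73). All wild-type libraries lay above all knockout libraries there (-2.33 ± 0.90 log2, SE, adjusted p 0.22 by edgeR), and the call held under all 16 settings. In the opposite direction, a region inside Zeb2 (chr2:45100361-45100989) read 10.6 and 7.27 CPM (line 112), 19.8 and 13.3 (line 113), 5.31 and 5.43 (line 119), and 1.52 and 1.10 (line 73). That call was lost when scaled on start regions. Another, 22.2 kb outside the other end (chr2:44961066-44961655), was 3.54 to 5.15 CPM in the knockout and 9.38 to 15.04 CPM in the wild-type libraries and held under 15 of the 16 settings. The widest range at Zeb2 was also inside the gene (chr2:45017283-45017931), at 3.54 and 4.11, 11.8 and 11.8, 4.67 and 4.58, and 0.76 and 0.55 CPM in lines 112, 113, 119 and 73. It set line 113 above and line 73 below the other lines, so it followed the line and not the genotype. Within 5 Mb of Zeb2 the median difference of line 119 over 73 was 1.43 log2, the widest shift around any member, and line 73 was the lowest line at 4 of 30 tested Zeb2 regions (13.3%, against 11.0% of all regions). The part of that shift in these 4 was not tested.

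Snai1 had 9 regions, all centred outside its short gene body. Of these, 2 separated the genotypes, both lower in the knockout, against 15.8% of all regions in either direction. The nearer, 10.3 kb away (chr2:167552744-167553526), read 3.54 and 6.33 CPM (line 112), 5.99 and 4.91 (line 113), 18.8 and 19.0 (line 119), and 22.6 and 19.3 (line 73). The farther, 27.5 kb away (chr2:167569873-167570780), read 11.6 and 11.4, 9.22 and 10.8, 24.9 and 23.1, and 43.3 and 39.9 CPM in the same order of lines. Neither overlapped between genotypes, and both calls held under all 16 settings, with genotype differences of -2.003 ± 0.80 and -1.65 ± 0.68 log2 (SE, adjusted p 0.22 and 0.24 by edgeR). Line 73 was the highest line at 4 of the 9 Snai1 regions (14.1% of all regions). One of these (chr2:167565637-167566185) had peaks only in line 73, with 13.2 and 9.91 CPM against 0.708 to 4.43 CPM in the 6 other libraries, and gave Snai1 its widest range. The surroundings of Snai1 within 5 Mb had a median genotype difference of -0.02 log2.

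At Twist2, 2 of 13 tested regions separated the genotypes, against 15.8% of all regions. The widest range and the stronger of these 2 were the same element, inside the gene (chr1:91816547-91817177). It read 13.2 and 10.4 CPM (line 112), 3.69 and 4.66 (line 113), 21.9 and 21.4 (line 119), and 41.3 and 34.4 (line 73). All 6 pairs of lines passed the threshold (largest adjusted p among the 6 pairs 0.0019, edgeR), and the genotype difference was -1.92 ± 0.76 log2 (SE, adjusted p 0.22). The second Twist2 region (chr1:91823296-91824000) was 4.01 to 7.27 CPM in the knockout and 9.89 to 15.04 CPM in the wild-type libraries, a call that was lost when scaled on start regions. Of the 4 Twist1 regions 2 were tested, and neither separated the genotypes under the scaling over all regions, whereas the start region did, lower in the knockout, when scaled on start regions. Snai2 had none either, and its widest range was at a region 26.9 kb outside the gene (chr16:14736080-14736588) that had peaks only in line 119, with 5.44 and 4.41 CPM there and 0.245 to 1.38 CPM elsewhere.

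**Figure D3:**
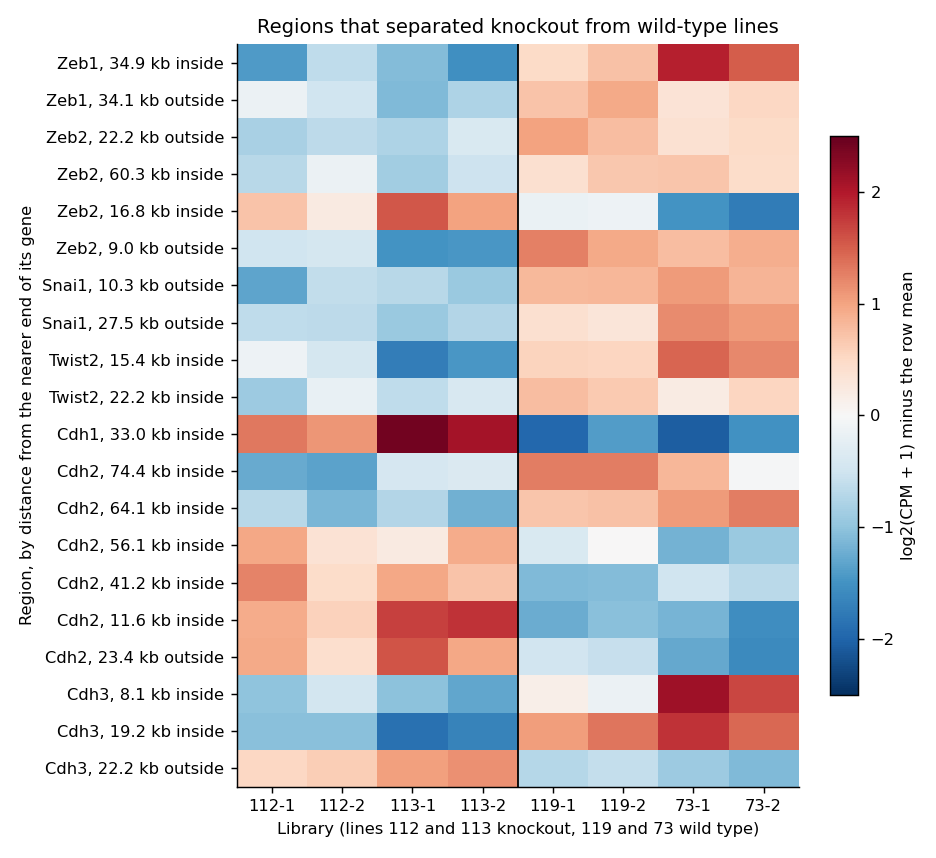
The 20 member regions that differed in the same direction in all 4 comparisons of a knockout with a wild-type line, by library, as log2(CPM + 1) minus the mean of the row; rows are named by gene and distance from the nearer gene end. The Cdh1 region, at 17.1 to 43.8 CPM in the knockout and 1.01 to 2.204 CPM in the wild-type libraries, has the strongest contrast, and Cdh2 and Cdh3 hold regions of both directions.

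Among the cadherins, the strongest difference of the whole set was a single element inside Cdh1. It lies near the middle of the gene, 33.0 kb from its nearer end (chr8:106636891-106637633). Its raw counts were 85 and 54 (line 112), 190 and 141 (line 113), 9 and 13 (line 119), and 4 and 7 (line 73). As CPM these were 20.1 and 17.1, 43.8 and 34.6, 1.17 and 2.204, and 1.01 and 1.93. A peak was called in all 4 knockout libraries and in none of the wild-type libraries. The genotype difference was 4.19 ± 0.87 log2 (SE, adjusted p 0.14 by edgeR), short of the threshold with 2 lines per genotype. In the 4 pairs of lines the difference was 3.501 to 4.73 log2, and the largest adjusted p was 3.5e-11. It separated the genotypes under all 16 settings, and line 113 was also above line 112 by 1.07 ± 0.23 log2 (SE, adjusted p 0.00036).

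None of the other 12 tested Cdh1 regions separated the genotypes, against 15.8% of all regions in either direction. The neighbouring region (chr8:106635181-106635810) had no peak and averaged 3.51, 5.53, 1.71 and 1.56 CPM in lines 112, 113, 119 and 73. The only Cdh1 region with a peak in all 8 libraries (chr8:106619387-106620079, 16.4 kb inside) averaged 20.4, 27.6, 20.9 and 16.4 CPM in lines 112, 113, 119 and 73. The median genotype difference over all 13 tested Cdh1 regions was -0.23 log2. No region of the table lay within 1 kb of either end of Cdh1, so its start region has no value here. Within 5 Mb, the median genotype difference was -0.11 log2.

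Cdh3 lies next to Cdh1 on chromosome 8, and 2 of its 3 separating elements had the opposite direction to that of Cdh1. These 3 were of 9 tested Cdh3 regions, against 15.8% of all regions. A region inside Cdh3 (chr8:106529779-106530342) read 2.83 and 2.85 CPM (line 112), 1.15 and 1.47 (line 113), 15.2 and 19.0 (line 119), and 26.6 and 20.4 (line 73). All wild-type libraries were far above all knockout libraries, with a difference of -3.32 ± 0.89 log2 (SE, adjusted p 0.14 by edgeR) that held under all 16 settings. Peaks were called there in all 4 wild-type libraries and in no knockout library. A second region inside Cdh3 (chr8:106518660-106519171) was 0.982 to 2.53 CPM in the knockout lines, 4.41 and 3.39 CPM (line 119), and 20.03 and 14.6 CPM (line 73). This call held under 10 of the 16 settings and was lost with DESeq2, with total counts, with a replicate block, with peak-called regions only and without the first library of line 112 or of line 119. A further region, 22.2 kb outside on the side of Cdh1 (chr8:106578793-106579349), went the other way, with 3.78 to 6.38 CPM in the knockout and 0.55 to 1.19 CPM in the wild-type libraries. The Cdh3 start region was weak in every line (2.77 to 7.91 CPM), had a peak in 1 library, and its level per kb was at percentile 9.38 of all start regions. No pair of lines passed there under the scaling over all regions, but scaled on start regions line 112 was above lines 113 and 73 by 1.35 ± 0.38 and 1.04 ± 0.38 log2 (SE, adjusted p 0.0070 and 0.019, edgeR).

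**Figure D4:**
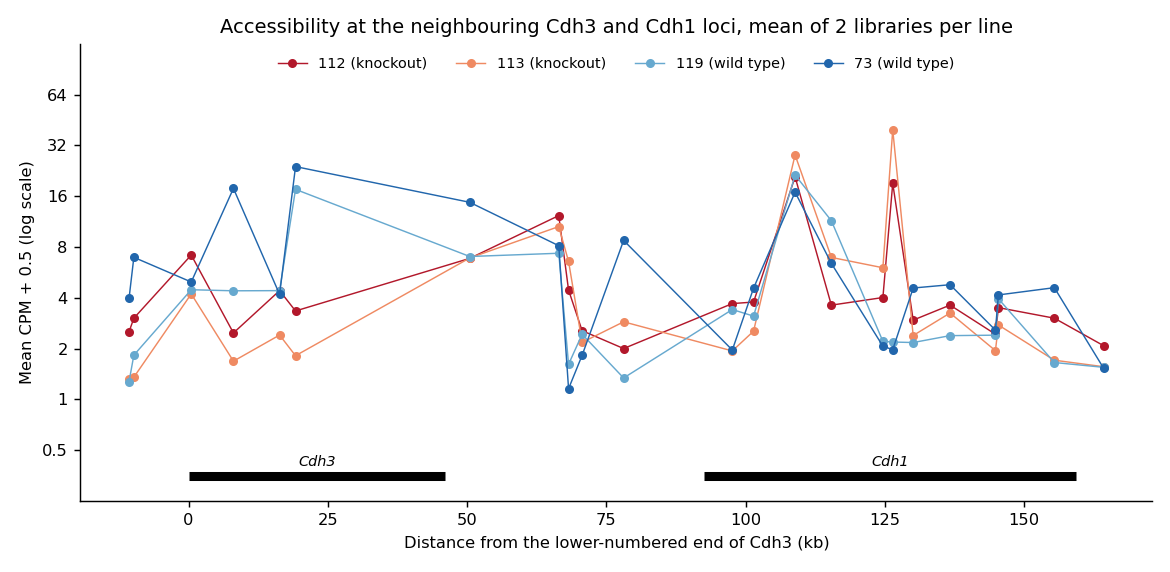
Mean CPM of the 2 libraries of each line (plus 0.5, log scale) at the regions of Cdh3 and Cdh1, by distance from the lower-numbered end of Cdh3; black bars mark the genes and lines join the regions only to guide the eye. The knockout lines rise to 18.6 and 39.2 CPM at 1 element in the middle of Cdh1, and the wild-type lines to 17.1 and 23.5 CPM at 1 element inside Cdh3.

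Cdh2 had the most accessible start region of the set per kb, at percentile 95.9 of all start regions, and it was open in every library. The region (chr18:16808221-16808999) read 44.9 and 37.3 CPM (line 112), 66.4 and 66.0 (line 113), 40.2 and 41.7 (line 119), and 67.4 and 71.0 (line 73). Each genotype thus had a higher and a lower line. Lines 112 and 119 were below line 73 with log2 differences of -0.74 and -0.76, and these differences fell below the threshold when scaled on start regions (-0.25 and -0.07, adjusted p 0.095 and 0.62, edgeR). The genotype difference was -0.06 ± 0.57 log2 (SE).

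Inside and around Cdh2, 6 of 31 tested regions separated the genotypes, 4 higher and 2 lower in the knockout. Of all regions, 15.8% separated, 8.22% higher and 7.55% lower. The region 11.6 kb inside the end at its start region (chr18:16797348-16797953) read 7.56 and 5.69 CPM (line 112), 13.8 and 14.7 (line 113), 0.907 and 1.19 (line 119), and 1.01 and 0.55 (line 73), a difference of 3.46 ± 0.95 log2 (SE, adjusted p 0.15 by edgeR). A region 64.1 kb inside (chr18:16744716-16745509) was 4.17 to 6.38 CPM in the knockout and 18.3 to 28.1 CPM in the wild-type libraries. Another region, 23.4 kb outside (chr18:16832062-16833250), was 6.33 to 15.4 CPM in the knockout and 0.825 to 2.98 CPM in the wild-type libraries. These 3 calls held under all 16 settings. The gene carried elements of both directions, as Zeb2 and Cdh3 did, beside a start region without a called genotype difference.

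The widest range of any member region was also at Cdh2, and it set line 73 apart. The region 13.7 kb inside (chr18:16795044-16796090) read 16.5 and 11.4 CPM (line 112), 30.4 and 26.8 (line 113), 12.4 and 13.9 (line 119), and 0.253 and 0.275 (line 73), where 2 counts were found in all. The ratio of line 113 to line 73 was 108, with a 95% exact counting interval of 29.7 to 899. The same ratio was 53.8 (14.5 to 450.4) for line 112 and 49.4 (13.5 to 411) for line 119. Peaks were called in all 6 libraries of the other lines and in neither library of line 73. A second region, 29.4 kb inside (chr18:16779285-16780436), read 12.3 to 21.4 CPM in the 6 other libraries and 3.55 and 3.85 CPM (line 73). Line 73 was the lowest line at 6 of the 31 Cdh2 regions (19.4%), against 11.0% of all regions, and all 6 kept this order when scaled on start regions, where the share of all regions was 15.3%. Within 5 Mb of Cdh2 line 73 was also lower than line 119 at the median region (0.73 log2 for 119 over 73), and the part of this in the 6 regions was not tested.

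**Figure D5:**
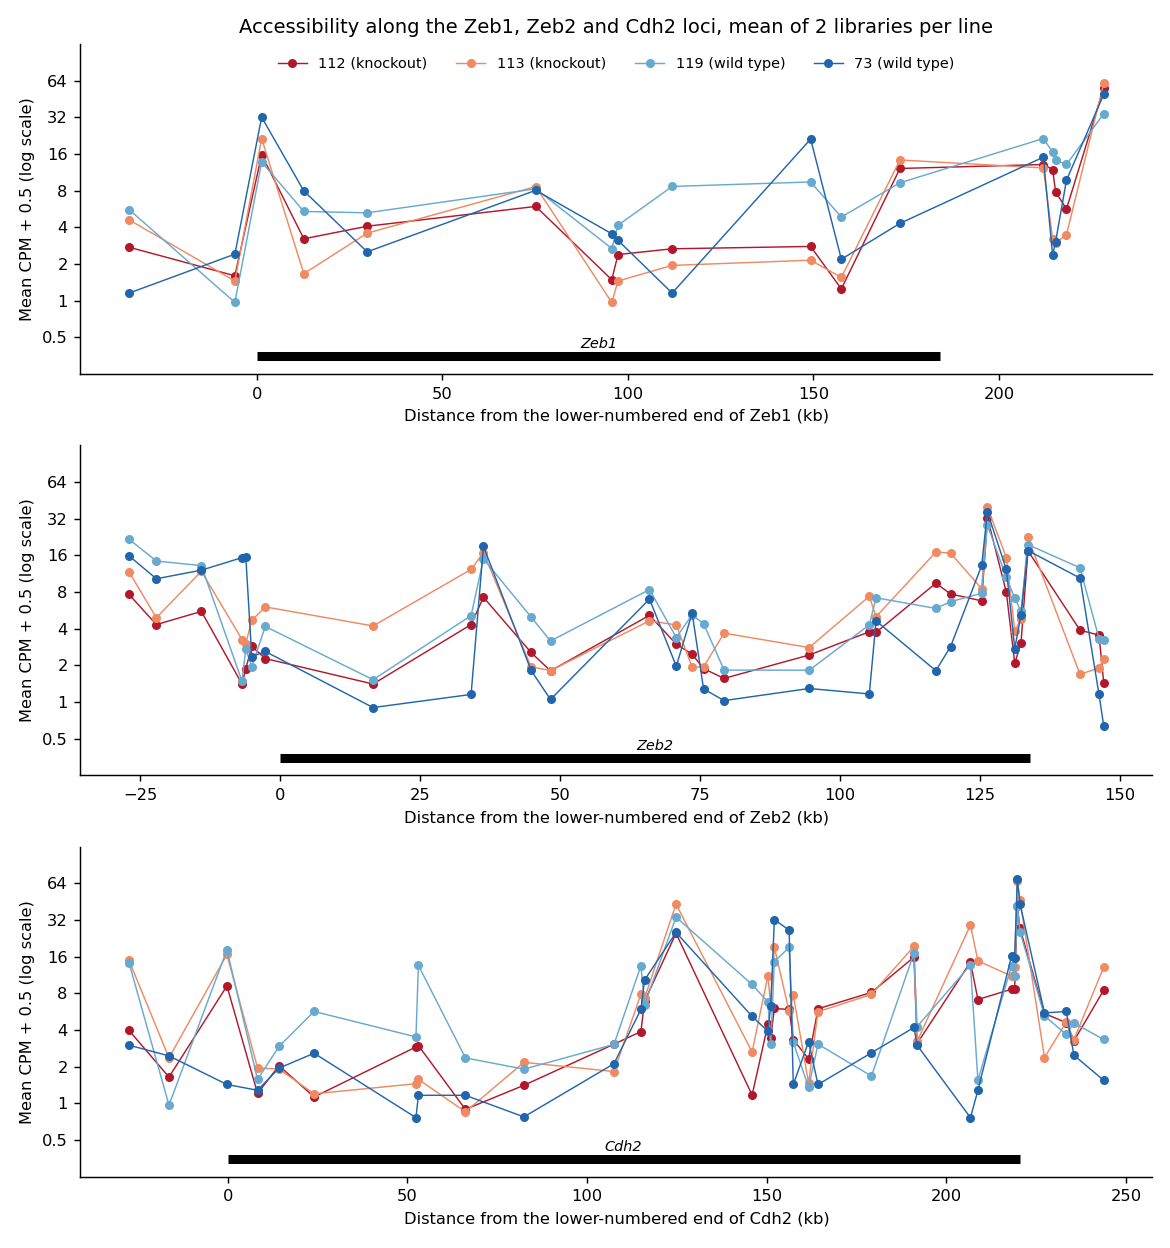
Mean CPM of the 2 libraries of each line (plus 0.5, log scale) along Zeb1, Zeb2 and Cdh2, by distance from the lower-numbered gene end; black bars mark the genes and lines join the regions only to guide the eye. At Cdh2, line 73 drops to 0.264 CPM at a region where the other lines read 13.2 to 28.6, while its start region stays at 69.2 CPM.

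Because Cdh1 has no start region, the ratio of Cdh1 to Cdh2 was formed from counts summed over all regions of each gene, per kb of region. Its log2 values were -0.37 and -0.03 (line 112), -0.45 and -0.42 (line 113), -0.91 and -1.03 (line 119), and -0.48 and -1.07 (line 73). All 4 knockout libraries were above all 4 wild-type libraries, narrowly so for 1 library of line 73. The difference of line means was 0.55 log2 with an exact permutation p of 0.33, the smallest that 2 lines against 2 allow. The ratio of Cdh1 to Cdh3 went from 0.23 and 0.10 (line 112) and 1.02 and 0.99 (line 113) to -0.20 and -0.42 (line 119) and -0.93 and -1.14 (line 73), again at an exact p of 0.33. The elements inside Cdh1 and Cdh3 described above are part of these sums. The Cdh1 sum averaged 86.4, 95.6, 69.9 and 58.4 CPM in lines 112, 113, 119 and 73, under the scaling of the sums. Its single element read 17.1 to 43.8 CPM in the knockout and 1.01 to 2.204 CPM in the wild-type libraries, under the scaling over all regions. Ratios without these elements were not formed, so a shift of the rest of the locus was not tested. As sums over the locus, Snai1 and Twist1 were lower in both knockout lines than in both wild-type lines (12.4% of 17315 loci separated in either direction). This call was lost for both genes when the sums were scaled by the factors of all regions, and with total counts as library sizes Cdh1, higher in the knockout, was called instead.

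Between single lines, the members differed about as often as other regions did. Of 126 tested member regions, 53 were called between lines 112 and 119 (48.6% of all regions), 61 between 112 and 73 (52.4%), 70 between 113 and 119 (61.2%), 66 between 113 and 73 (54.5%), 29 between 112 and 113 (25.5%) and 71 between 119 and 73 (60.2%). The member shares were 42.1%, 48.4%, 55.6%, 52.4%, 23.0% and 56.3%. At least 1 of the 6 pairs called 111 of the 126 (88.1%, against 90.9% of all regions). The fewest calls were between the 2 knockout lines, and lines 119 and 73, of 1 genotype, gave the most. Line 73 was higher than each other line at 18 member regions (14.1% of all regions) and lower at 12 (11.0%). Line 119 was higher at 13 (12.6%) and lower at 5 (5.34%), line 113 higher at 11 (8.03%) and lower at 3 (2.78%), and line 112 lower at 3 (1.31%). Line 112 was the highest line at none of them (2.13% of all regions). These counts depend on the scaling. Scaled on start regions, line 73 was the highest at 12 member regions (7.29% of all regions) and the lowest at 17 (15.3%). Line 119 was then the highest at 29 (20.3%) and the lowest at 1 (1.04%), and line 113 the highest at 1 (2.41%) and the lowest at 10 (8.03%). Line 112 was the lowest at 2 (0.741%).

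The genes around this programme were read at their start regions, in lists chosen with earlier results of these data known. Of 15 mesenchymal genes, 6 separated the genotypes, all lower in the knockout, against 2.88% of the start regions of other genes in that direction, and the list's median genotype difference was -1.16 log2 against 0.08 over all start regions. They were Tnc (tenascin C), with line means of 2.33 and 2.03 CPM in lines 112 and 113 and 14.3 and 14.1 CPM in lines 119 and 73, Tgfbi (5.09, 2.26, 15.5 and 21.6), Pdgfrb (5.76, 3.70, 13.0 and 47.7), Col3a1 (3.47, 2.28, 9.91 and 12.1), the gelatinase gene Mmp2 (4.50, 3.46, 13.5 and 13.3) and S100a4 (19.3, 15.6, 28.0 and 49.2). The same 6 separated when scaled on start regions (4.53% of the start regions of other genes in that direction). None passed the test with lines as units (smallest adjusted p 0.15, Pdgfrb, edgeR). Vim, the mesenchymal intermediate filament gene, stayed between 58.8 and 94.9 CPM in all lines. Acta2 was 43.6 CPM in line 73 and 3.76 to 5.35 CPM in the other lines, so line 73 was the highest there as well. Fn1 averaged 35.4, 35.8, 22.8 and 65.6 CPM in lines 112, 113, 119 and 73. Lines 112 and 113 were above line 119 by 0.65 and 0.64 log2 under the scaling over all regions. Start regions of other genes had medians of 0.18 and 0.78 in these comparisons, so line 113 did not exceed the general shift. Under the scaling over all regions, 2 of the 15 were called higher and 6 lower in line 112 than in line 119. For line 113 against 119 they were 2 higher and 7 lower. Of other start regions, 34.5% and 80.0% were called in these 2 comparisons. Against line 73, 0 were higher and 13 lower in line 112, and 1 was higher and 13 lower in line 113. Between the wild-type lines, 0 were higher and 10 lower in line 119 than in line 73. Of other start regions, 61.2%, 31.7% and 77.8% were called in these 3 comparisons with line 73. Scaled on start regions, 6 were lower in line 119 than in line 73 (36.6% of other start regions were called).

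Of 18 epithelial genes, 10 had a start region in the table, and 8 had none (Cldn3, Cldn4, Cldn7, Krt18, Krt19, Grhl2, Crb3 and Marveld3). Of the 10, 1 separated the genotypes, Grhl3, at 5.05 and 5.03 CPM in lines 112 and 113 and 2.29 and 1.58 CPM in lines 119 and 73. Of the start regions of other genes, 2.44% separated in that direction. Grhl3 lost this call when scaled on start regions, and none of the 10 had it. Esrp1 and Esrp2, splicing factors of epithelial cells, and Epcam, an epithelial surface protein, did not. Line 73 had the highest mean at Esrp2, with 3.47, 12.2, 7.43 and 19.5 CPM in lines 112, 113, 119 and 73. It was also highest at Krt8 (3.99, 1.52, 1.74 and 7.77 CPM). At Epcam, Ocln, Cldn1, Esrp1, Ovol1, Ovol2 and Grhl3 its mean was the lowest. Of these genes, only Ovol2 was called between lines 119 and 73 (0.71 log2 for 119 over 73, adjusted p 0.042, edgeR). No line pair was called at Epcam or Cldn1. None of the 12 other regulators, such as Foxc2, Prrx1 and the Id genes, separated the genotypes, and 11 of them were lower in line 119 than in line 73 (77.8% of the start regions of other genes were called between those lines). Scaled on start regions, 5 were lower in line 119 (36.6% of other start regions were called). Klf8 then separated the genotypes, lower in the knockout, as did 4.53% of the start regions of other genes. Foxc2 was 49.1 CPM in line 73 and 9.50 to 12.1 CPM in the other lines. None of 5 catenin and adaptor genes that bind cadherins separated under either scaling. Among 8 other cadherin genes, 5 had a start region and none separated under either scaling. Of these, Cdh19, a cadherin of neural crest and glia, was 17.9, 30.1 and 17.3 CPM in lines 112, 113 and 119 and 0.55 CPM (line 73), and Cdh6 was 7.06, 20.6, 36.3 and 2.45 CPM in lines 112, 113, 119 and 73. No gene of these 5 lists passed the genotype test with lines as units.

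Markers of the labelled and of other cell types moved with the lines as well. All 8 melanocyte markers had a start region. Their summed level was 144 to 261 CPM in the knockout and 79.7 to 126 CPM in the wild-type libraries, and 3 of them (Mlana, Tyr and Dct) separated the genotypes, all higher in the knockout (2.44% of the start regions of other genes). Scaled on start regions, Tyrp1 was added to them (2.27% of other start regions). Pmel was open in every line (39.9, 64.7, 32.8 and 73.8 CPM in lines 112, 113, 119 and 73). So was Mitf, at 25.3, 36.7, 18.9 and 38.7 CPM in the same order. Both had their highest mean in line 73, with line 113 next. Sox10, the neural crest factor of this lineage, was 22.6, 28.3 and 17.6 CPM in lines 112, 113 and 119 and 3.06 CPM (line 73). The means of Mlana, Tyr, Dct and Gpr143 were also lowest in line 73, and that of Tyrp1 in line 119. All 6 fibroblast and stroma genes had a start region, and their summed level was 29.9 to 37.6 CPM in the knockout libraries, 38.4 and 44.6 CPM (line 119) and 139 and 133 CPM (line 73). Of these, Col1a2 was 31.9 CPM in line 73 and 0.60 to 3.63 CPM elsewhere, while Lum was highest in line 112 (2.56 CPM) and 0.67 CPM in line 73. The level of Twist1, Twist2, Snai1 and Zeb1 was thus highest in the line with the most stromal and the least Sox10 signal. Mitf and Pmel were not low in that line, and the part of other cells in all these values was not tested. Of 9 blood cell markers 5 had a start region, with sums of 37.8 to 54.7 CPM in the knockout and 34.1 to 49.7 CPM in the wild-type libraries. The defining leukocyte and lymphocyte genes Ptprc, Cd3e, Cd79a and Cd8a had none. Of 4 endothelial markers only Kdr had one, with 2.13 to 5.69 CPM in the knockout and 5.50 to 7.52 CPM in the wild-type libraries, and of 6 epithelial markers only Epcam and Krt8, with sums of 4.42 to 11.1 and 5.57 to 12.4 CPM. In bulk samples, fewer cells with open DNA and less open DNA per cell cannot be told apart.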

How the data were processed

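The members and gene lists were chosen with earlier results of these data known. The authors deposited 1 table of raw counts per region for the 8 libraries, and 1 peak list per library with a score, a fold over background (a ratio) and a −log10 p and q for each peak. Per the submitters' processing notes, the build was mm10 (GRCm38) and the tools named were Bowtie2 2.2.4, Picard 1.118 and MACS2 2.1.1.20160309. What was counted, how duplicates were treated and whether positions were shifted for the transposase is not given in the sources used here. Duplicates, if counted, make counting error larger than it appears. Fragments over 1200 bp were removed, per the labels' protocols.

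Regions were placed on RefSeq genes of GRCm38.p6 (21887 protein-coding genes), whose table gives no strand. Of the members, 5 had no listed start. Counts were tested with edgeR 4.0.16 (R 4.3.3, filterByExpr, TMM, quasi-likelihood, two-sided, Benjamini-Hochberg, threshold 0.05) on all regions. The genotype test used counts summed per line, 2 lines against 2, and kept 140329 regions. The 6 line pairs used all 8 libraries and kept 134068. A region separated the genotypes when each of the 4 knockout and wild-type pairs passed in 1 direction. Standard errors are the log2 difference over the square root of F. The scripts were tested on simulated data, with 200 of 30000 regions changed and an assumed spread between lines in the genotype fit. There the genotype fit recovered 0% of 2-fold, 1% of 4-fold and 88.5% of 16-fold changes. The fit of line 113 against 73 recovered 26%, 90.5% and 99.5%. A count of 0 in the genotype test therefore says little about small differences. Replicates differed by more than counting noise (chi-square per degree of freedom 1.07 to 1.98). Peaks overlapped a region by at least 1 bp, and peak scores and folds were not compared.

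The rule for what is named took all 9 genes with their start region, the region of widest range where 3 or more were tested, and up to 3 separating regions by genotype p. Other regions named were chosen after their values were seen: the Cdh1 region with peaks in all libraries and the neighbour of the Cdh1 element, the second region low in line 73 at Cdh2, and in the gene lists those given as examples. The planned ratio of Cdh1 to Cdh2 over start regions could not be formed, and locus sums took its place. Alternatives were DESeq2 1.42.0, other scalings and filters, a chromosome offset, peak-called regions, 10 kb, a replicate block and leaving out each library. Scaling on start regions, and locus sums scaled by all regions, were chosen after seeing the data.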

Additional observations from a re-analysis of the deposited data

Results flagged for a closer look

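Of 94 groups of 4 libraries examined at member regions, 2 held 1 library far from the other 3, and chance flags about 1 in 20 such groups. At the Snai1 start region, the first library of line 112 read 7.56 CPM, and the other 3 knockout libraries read 11.5 to 12.3 CPM. At the Snai1 region 10.3 kb outside the gene, the first library of line 73 read 22.6 CPM, and the other 3 wild-type libraries read 18.8 to 19.3 CPM.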

How the results depend on the processing

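The genotype test called 0 member regions in the main analysis, 5 of 103 with DESeq2 (4.85%, against 6.45% of all regions), 24 of 96 with libraries as units (25.0%, against 26.0%, treating libraries of 1 line as independent) and 0 to 1 when 1 library was left out (1 without line 112 replicate 1). The 20 separating regions were 14 to 22 under the alternatives, with 14 to 20 shared with the main result. Calls between lines 112 and 119 fell from 53 to 31 within 10 kb, where fewer regions were tested. With DESeq2 they were 43 of 70 between 113 and 119, 18 of 29 between 112 and 113 and 43 of 71 between 119 and 73, and the cause was not tested. Without 1 library the calls between 112 and 113 were 18 to 29, the lowest without line 113 replicate 1. The 2 separating locus sums became 1 with total counts, 1 with DESeq2, 1 with a replicate block, 0 with the factors of all regions and 0 to 3 without 1 library. They were 0 without line 112 replicate 1 or either replicate of line 119. The Zeb1 to Zeb2 difference was -0.021 over locus sums. Peaks in both libraries of a line, 18, 47, 74 and 51 member regions in lines 112, 113, 119 and 73, became 7, 17, 39 and 30 when at least 0.5 of the region had to be covered, and 11 in line 112 at a −log10 q of 5. The Cdh2 start region in line 113 against 73 turned from -0.06 to 0.012 with peak-called regions only. Replicate numbers did not pair libraries (correlations of -0.037 to 0.005 over 134068 regions), and with a replicate block 19 regions separated the genotypes. Line 112, the shallowest, limits what could be called there.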

Other observations

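The miR-200 family of microRNAs is known to repress Zeb1 and Zeb2, and its loci were looked up after the member values had been seen. Within 10 kb of Mir200a and Mir200b there was 1 region, and it had no peak in any library. Within 10 kb of Mir200c and Mir141 there was 1 region, the same for both, with a peak call. Within 10 kb of Mir429 there were 2 regions, the one already counted for Mir200a and Mir200b and another, which had a peak. The most accessible region assigned to Zeb1 was 44.1 kb outside the gene (chr18:5818801-5820330), had peaks in all 8 libraries, and averaged 55.2, 60.4, 33.8 and 48.8 CPM in lines 112, 113, 119 and 73.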
